A study of Homo sapiens with 6 samples.

Results

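The genes of the AMP-activated protein kinase (AMPK) complex and of its upstream kinases were followed in A2058 cells, a human melanoma line. The 8 genes were PRKAA1 and PRKAA2 (catalytic alpha subunits), PRKAB1 and PRKAB2 (scaffold beta subunits), PRKAG1 and PRKAG2 (nucleotide-binding gamma subunits), and the kinase genes STK11 and CAMKK2. They were chosen by name, and all their probe sets that the platform's annotation assigns to a single gene were taken, which gave 28 of the 41091 single-gene probe sets. The 3 lines compared were a Mock line, a line overexpressing wild-type TET2 (TET2WT) and a line overexpressing the construct labelled TET2M. TET2 is the enzyme that oxidises 5-methylcytosine. DMEM held glucose at either 4.5 g/L (high) or 1 g/L (normal) during the 7 days of culture, and RNA of each of the 6 combinations was hybridised to 1 Affymetrix array. The labels do not say whether a line is a clone or a pool, nor which promoter drives the constructs.

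AMPK is a heterotrimer of 1 alpha, 1 beta and 1 gamma subunit that senses the energy state of the cell. AMP and ADP bind the gamma subunit when ATP is short, and the alpha subunit is switched on when STK11 (also called LKB1) or CAMKK2, a kinase driven by calcium, phosphorylates its activation loop. Active AMPK slows lipid and protein synthesis and favours catabolism and autophagy. AMPK is the proposed glucose sensor that acts on TET2, and the arrays measure its transcripts, not its activity.

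None of the 8 genes passed a test in any of the 5 comparisons. The tests were fitted with limma across 14428 genes, with the probe set of highest mean standing for each gene, and a gene passed at an adjusted p under 0.05. Over the 3 lines, high minus normal glucose ranged from -0.18 (PRKAG1) to 0.20 (PRKAB2) on the log2 scale, with a median of 0.0033 against -0.020 over all genes tested. The count was 0 of 8 beside 0.00693% of all genes, and 0 of the 8 had an unadjusted p under 0.05 beside 15.4% of all genes. For these probe sets, the 95% confidence intervals from limma of all 8 glucose differences lay between -0.36 and 0.42. That is inside a 1.5-fold change in either direction (0.58 on the log2 scale). Some intervals of the genes' other probe sets reached past 1.5-fold. There was 1 array per combination, so all glucose and line differences of a gene share 1 estimate of error. It reflects how far the glucose difference varies among the 3 lines, and limma moderates it with the spread of all genes tested. A p-value here weighs a difference against that estimate. Within it, a glucose response particular to 1 line and array-to-array spread, part of which can be technical, cannot be told apart. Precision is set by having only 6 arrays. In simulated data of this design with 200 changed genes, 0% of 1.5-fold changes passed, so the absence of a pass does not exclude changes of that size. That share depends on how many genes change. In TET2WT minus Mock, where 608 genes passed, changes near that size could pass, such as NUAK1 at -0.56.

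**Figure D1:**
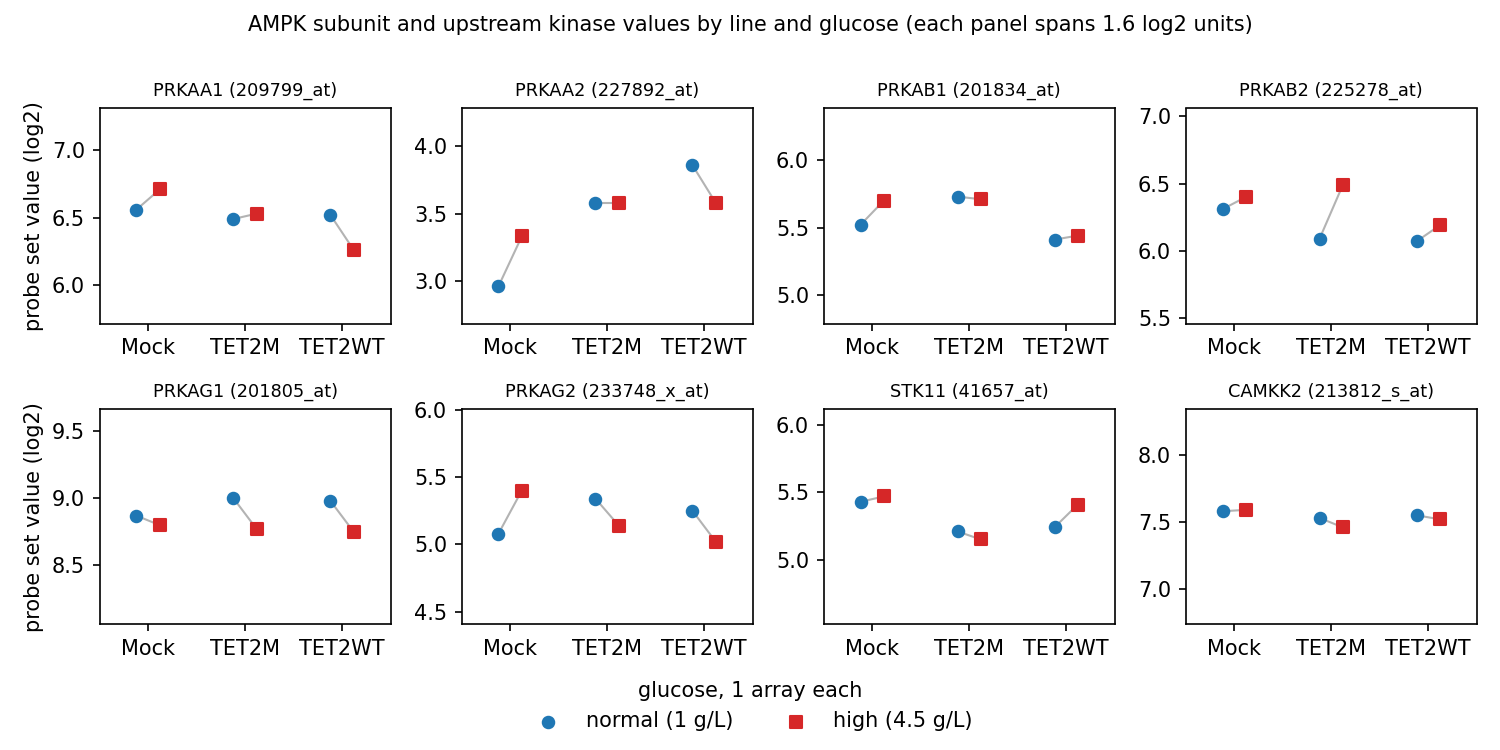
Log2 value of the probe set with the highest mean of each of the 8 genes, by line, with 1 array per point (circles normal glucose, squares high glucose, lines joining the arrays of a line). Each panel spans the same 1.6 log2 units and levels are not comparable between panels. PRKAA2 has the widest spread, from 2.96 to 3.86, and CAMKK2 the narrowest, from 7.46 to 7.59.

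The transgene's own signal was checked first: TET2 read 4.13 and 3.81 at normal and high glucose in Mock, 7.37 and 7.57 in TET2M, 9.68 and 9.54 in TET2WT. TXNIP, a transcript induced by glucose, was higher at high glucose by 1.87 ± 0.20 (SE; adjusted p = 0.0783, limma). It read higher there in each of the 3 lines. Of 16 melanocyte and melanoma markers 11 lay above the low-value level of 2.64, with SOX10 between 9.38 and 9.65, whereas the pigment genes MLANA, TYR, TYRP1 and DCT did not. Of 10 blood markers 7 had a single-gene probe set and 3 had a mean above that level, CD3E with 5 of 6 arrays below it. Of 8 endothelial markers 6 lay above it. Of these blood and endothelial markers, LYZ read 5.39 to 6.35, ROBO4 4.72 to 6.11 and PECAM1 4.09 to 4.45. The others above the level read at most 4.05. PTPRC and CDH5 were not among the genes above it, and PTPRC may be 1 of the blood markers without a single-gene probe set. The median array value was between 2.96 and 3.03.

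Of the catalytic subunits, PRKAA1 encodes alpha 1, the more widely expressed form. Its probe set with the highest mean (209799_at) read 6.56 at normal and 6.71 at high glucose in Mock, 6.49 and 6.53 in TET2M, and 6.52 and 6.26 in TET2WT. The TET2WT array at high glucose was the lowest of the 6, and the high and normal arrays overlapped. The glucose difference was -0.023 ± 0.099 (adjusted p = 0.932, limma), positive in Mock and TET2M and negative in TET2WT. TET2WT minus Mock was -0.25 ± 0.12 (adjusted p = 0.332, limma), with differences of -0.04 at normal and -0.45 at high glucose. All 4 PRKAA1 probe sets above the low-value level had negative values in that comparison, from -0.42 to -0.16.

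The other PRKAA1 probe sets did not share 1 glucose pattern. In TET2M, 225984_at read 5.18 at normal and 5.87 at high glucose, the lowest and the highest of its 6 values. In Mock, 214917_at read 3.47 at normal and 4.27 at high glucose, and its difference over the 3 lines was 0.39 ± 0.16 (adjusted p = 0.358, limma across 27035 probe sets). The same probe set was 0.45 higher at high glucose in TET2WT and 0.07 lower in TET2M. The last PRKAA1 probe set, 1555177_at, read below the low-value level on all 6 arrays.

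PRKAA2, the alpha 2 subunit gene, is best known from muscle, heart and liver and its probe sets read near the low-value level. Its probe set with the highest mean (227892_at) read 2.96 and 3.33 at normal and high glucose in Mock, 3.58 and 3.58 in TET2M, and 3.86 and 3.58 in TET2WT. Both Mock arrays lay below the 4 arrays of the overexpressing lines. TET2WT minus Mock was 0.58 ± 0.16 (95% interval 0.19 to 0.96, adjusted p = 0.119, limma; higher at 2 of 2 concentrations), and TET2M minus Mock was 0.44 ± 0.16 (adjusted p = 0.472, limma). Unadjusted p-values were 0.0110 and 0.0336. With an intensity trend in the variance, the TET2WT difference had an adjusted p of 0.0482 in limma, in a setting where 1528 of all 14428 genes passed. Over its 15 alternative settings the difference ran from 0.32 to 0.83.

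A second PRKAA2 probe set, 240349_at, placed the lines differently. It read 3.32 and 3.13 in Mock, 2.95 and 3.10 in TET2M, and 3.59 and 3.66 in TET2WT. TET2WT was above both other lines at both concentrations, by 0.60 ± 0.12 over TET2M (adjusted p = 0.0721, limma across probe sets), the smallest adjusted p of any probe set of the 8 genes. TET2M minus Mock was -0.20 here, against 0.44 on 227892_at. Another probe set, 207709_at, differed by at most 0.46 over the 6 arrays, and 238489_at and 238441_at had means below the low-value level. The span of 0.90 on 227892_at lay at percentile 94.6 of the spans of all genes tested, whose median was 0.38. Over the 6 arrays, the genes with the most similar profile to it among 4063 candidates were MOB3B (Pearson r = 0.963), CLIP2 (r = 0.962) and GALNT10 (r = 0.962). With 6 points from 3 lines, this describes the profile only.

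The beta subunits hold the trimer together and carry a glycogen-binding domain. PRKAB1 (201834_at) read 5.52 and 5.70 at normal and high glucose in Mock, 5.73 and 5.71 in TET2M, and 5.41 and 5.44 in TET2WT. The TET2WT arrays were the lowest 2 of the 6. TET2WT minus TET2M was -0.30 ± 0.095 (95% interval -0.53 to -0.061, adjusted p = 0.193, limma; lower at 2 of 2 concentrations), and TET2WT minus Mock was -0.19 ± 0.095 (adjusted p = 0.348, limma). The other PRKAB1 probe set, 201835_s_at, read 4.61 and 4.84 in Mock, 4.55 and 4.56 in TET2M, and 4.35 and 4.10 in TET2WT, so Mock and not TET2M was highest on average. There TET2WT minus Mock was -0.50 ± 0.13 (adjusted p = 0.133, limma across probe sets). Both probe sets thus placed TET2WT lowest, without a pass.

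PRKAB2 had the largest glucose difference of the 8 genes. Its probe set with the highest mean (225278_at) read 6.31 and 6.40 at normal and high glucose in Mock, 6.09 and 6.49 in TET2M, and 6.07 and 6.19 in TET2WT. High glucose was above normal in 3 of 3 lines, by 0.20 ± 0.090 (95% interval -0.017 to 0.42, adjusted p = 0.350, limma), although the high and normal arrays overlapped across lines. In the table as a whole 37.5% of genes had the same sign in all 3 lines, and 2 of the 8 did, PRKAB2 and PRKAG1.

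The other 2 PRKAB2 probe sets also had positive glucose differences, of up to 0.29, but not in every line. 1558027_s_at read 4.56 and 5.24 at normal and high glucose in Mock, 4.47 and 4.98 in TET2M, and 4.52 and 4.21 in TET2WT. Its glucose response in TET2WT differed from the mean of Mock and TET2M, with a difference of -0.91 ± 0.14, with an unadjusted p of 0.00877 and an adjusted p of 0.582 in limma across probe sets. 214474_at read 3.53 and 4.22 in TET2M, 3.73 and 3.90 in Mock, and 3.71 and 3.69 in TET2WT. All 3 PRKAB2 probe sets had a more negative value in this TET2WT-specific comparison, from -0.91 to -0.13, and none passed.

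The gamma subunits bind AMP, ADP and ATP. PRKAG1, the main gamma gene of most cells, has 1 probe set (201805_at), which read 8.87 and 8.80 at normal and high glucose in Mock, 9.0 and 8.77 in TET2M, and 8.98 and 8.75 in TET2WT. The 3 high-glucose arrays all lay below the 3 normal-glucose arrays, as they did, in either direction, for 13.8% of all genes. The difference was -0.18 ± 0.076 (95% interval -0.36 to 0.0099, adjusted p = 0.340, limma; lower in 3 of 3 lines). TET2WT minus Mock was 0.030 ± 0.093 and TET2M minus Mock at 0.050 ± 0.093. Over 17 alternative settings the glucose difference of PRKAG1 stayed between -0.23 and -0.15, and that of PRKAB2 between 0.11 and 0.26.

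The stretches just upstream of PRKAB2 and PRKAG1 are shown because these were the 2 genes whose glucose differences had 1 sign in every line, in opposite directions. The 150 bases before the start site come from RefSeq (GRCh38.p14), chr1:147172471-147172620 for PRKAB2 and chr12:49018777-49018926 for PRKAG1, both on the minus strand. Capitals mark matches, on either strand, to the GC box GGGCGG, the CCAAT box, the ETS core CCGGAAG, the CRE half-site TGACGT and the E-box CACGTG, the core of the element through which MondoA and ChREBP act.

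PRKAB2: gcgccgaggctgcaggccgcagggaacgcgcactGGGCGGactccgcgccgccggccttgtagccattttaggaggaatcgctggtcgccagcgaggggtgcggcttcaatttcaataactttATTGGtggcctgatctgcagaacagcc

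PRKAG1: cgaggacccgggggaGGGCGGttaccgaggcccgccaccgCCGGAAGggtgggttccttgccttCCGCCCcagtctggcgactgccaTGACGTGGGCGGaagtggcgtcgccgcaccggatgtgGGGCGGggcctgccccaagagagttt

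PRKAB2 has 1 GC box and 1 CCAAT box, and PRKAG1 has 4 GC boxes, 1 ETS core and 1 CRE half-site that adjoins a GC box. The PRKAG1 stretch also lies within the annotated bounds of the noncoding gene DDN-AS1. Of 35116 windows of this length before RefSeq start sites 36.8% hold the GC box, 23.5% the CCAAT box, 6.85% the ETS core, 5.39% the CRE half-site and 4.57% the E-box. All 8 genes had windows, 12 in all. The E-box letters occurred in 0 of the 12 and the GC box in 8, covering 7 of the 8 genes. A match is a description of letters and not a bound site.

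PRKAG2, whose mutations cause a glycogen storage cardiomyopathy, was represented by 233748_x_at, a type of probe set that can bind other transcripts. It read 5.08 and 5.40 at normal and high glucose in Mock, 5.34 and 5.14 in TET2M, and 5.25 and 5.02 in TET2WT. Mock was higher at high glucose and both overexpressing lines lower, so the glucose difference was -0.037 ± 0.12 (adjusted p = 0.916, limma). 218292_s_at read 4.33 and 4.99 in Mock, 4.56 and 4.59 in TET2M, and 4.18 and 4.42 in TET2WT, and 222582_at read 4.35 and 4.89 in Mock, against 4.50 to 4.57 on the other 4 arrays. On all 3 probe sets the Mock array at high glucose was the highest of the 6. The TET2WT-specific glucose response had negative values on all 3, from -0.29 to -0.11, with no pass.

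**Figure D2:**
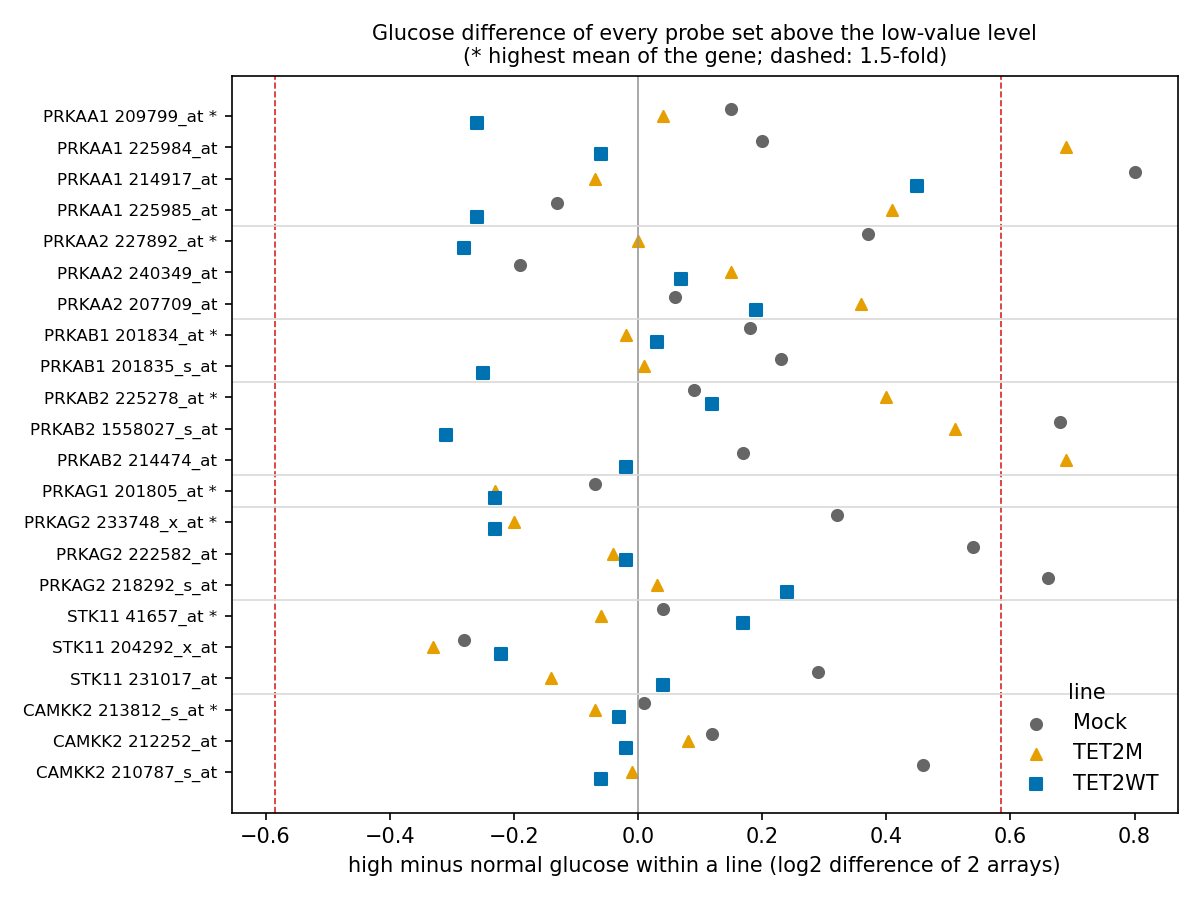
High minus normal glucose within each line for the 22 probe sets of the 8 genes above the low-value level (horizontal axis, log2 difference of 2 arrays; circles Mock, triangles TET2M, squares TET2WT; dashed lines mark 1.5-fold). Past 1.5-fold lie 3 Mock and 2 TET2M points, all positive, and no TET2WT point.

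Within single lines, the probe sets differed in how they lay around 0. In Mock 18 of the 22 probe sets were higher at high glucose, beside 47.9% of all probe sets, with a median of 0.18, and 3 of them were at least 1.5-fold higher (PRKAA1 214917_at, PRKAB2 1558027_s_at and PRKAG2 218292_s_at), beside 1.71% of all probe sets. In TET2M 11 of the 22 were higher, beside 46.1%, with a median of 0.0050, and 2 were at least 1.5-fold higher (PRKAA1 225984_at and PRKAB2 214474_at), beside 1.31%. In TET2WT 8 of the 22 were higher, beside 49.1%, with a median of -0.025, and 0 were at least 1.5-fold higher, beside 0.958%. Each of these differences rests on 2 arrays and has no test, and probe sets of 1 gene are not independent. The 3′ minus 5′ difference of the ACTB control probe sets, which rises as RNA is degraded, was higher at high glucose in each line, at 2.02 against 1.94 in Mock, 1.93 against 1.65 in TET2M and 2.06 against 1.90 in TET2WT. That of GAPDH was not, at 0.29 against 0.32 in Mock, 0.28 against 0.28 in TET2M and 0.35 against 0.25 in TET2WT. The part of RNA quality in these values was not tested.

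Of the upstream kinases, STK11 is a tumour suppressor that phosphorylates AMPK and its relatives. Its probe set 41657_at read 5.43 and 5.47 at normal and high glucose in Mock, 5.21 and 5.15 in TET2M, and 5.24 and 5.41 in TET2WT. Mock was above TET2M at both concentrations, and TET2M minus Mock was -0.27 ± 0.097 (unadjusted p = 0.0326, adjusted p = 0.471, limma). Another STK11 probe set, 204292_x_at, gave the opposite sign for the same comparison, at 0.32 ± 0.097 (adjusted p = 0.518, limma across probe sets), with 5.07 and 4.79 in Mock and 5.41 and 5.08 in TET2M. At high glucose 204292_x_at was lower in 3 of 3 lines, with a difference of -0.28 ± 0.079 (adjusted p = 0.262, limma across probe sets), while 41657_at had 0.050 ± 0.080 and 231017_at 0.063. The STK11 probe sets therefore gave no common direction for glucose or for TET2M.

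CAMKK2 was the steadiest of the 8. Its probe set 213812_s_at read 7.58 and 7.59 at normal and high glucose in Mock, 7.53 and 7.46 in TET2M, and 7.55 and 7.52 in TET2WT, a span of 0.13 at percentile 3.4 of all genes tested. The glucose difference was -0.030 ± 0.071 (95% interval -0.20 to 0.14). On 212252_at the TET2WT arrays (4.71 and 4.69) lay below Mock (4.97 and 5.09) and TET2M (4.84 and 4.92). There TET2WT minus Mock was -0.33 ± 0.099 (adjusted p = 0.163, limma across probe sets). The remaining CAMKK2 probe sets had means near the low-value level or below it (2.70 and 2.59).

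**Figure D3:**
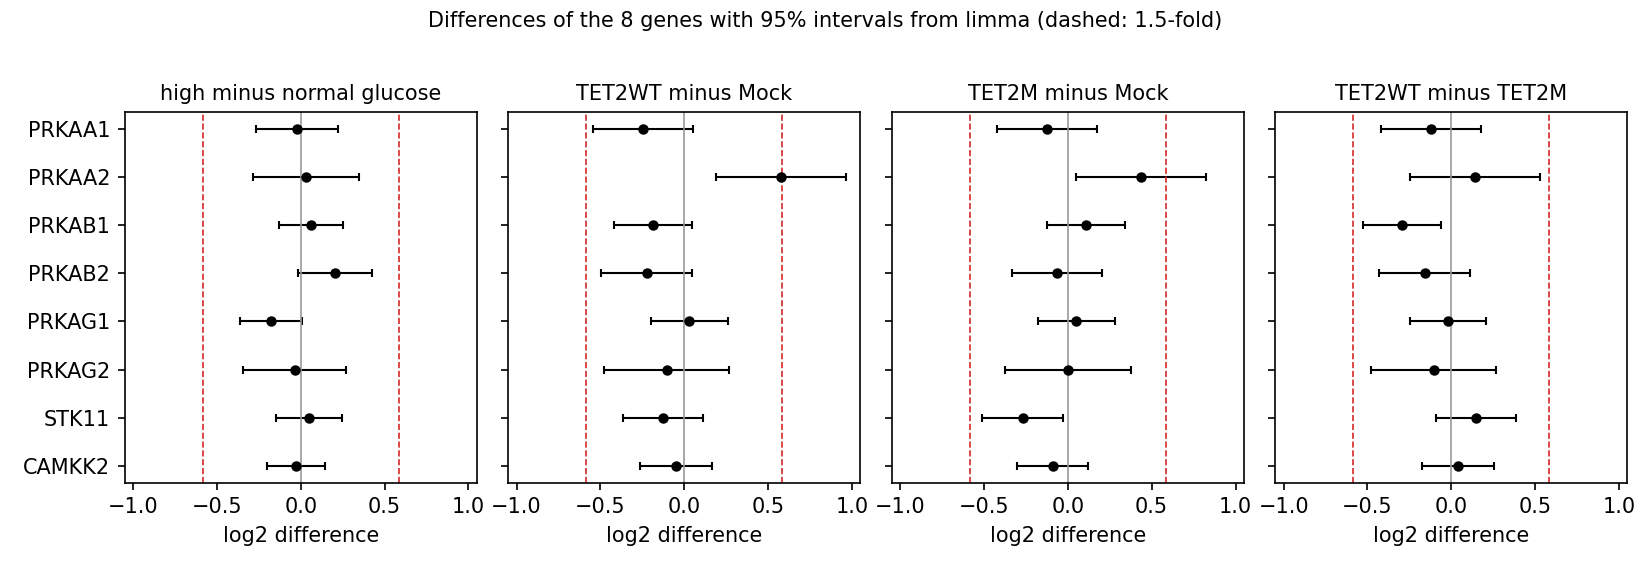
Log2 differences of the 8 genes (rows), each on its probe set with the highest mean, in 4 comparisons (panels). Points carry 95% confidence intervals from limma, and dashed lines mark 1.5-fold. All intervals of the glucose and the TET2WT minus TET2M panels lie inside the dashed lines, and PRKAA2 is the 1 gene whose intervals cross a dashed line in the other panels.

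Differences between lines gave no pass either. TET2WT minus Mock had a median of -0.12 over the 8, against -0.010 over all genes, with 6 negative beside 51.8% of all genes, and 0 passed beside 4.21% of all genes tested. The TET2WT and Mock arrays did not overlap for 6 of the 8, beside 43.5% of all genes, since each group holds 2 arrays. TET2M minus Mock had a median of -0.033, 0 of the 8 passed beside 0.097% of all genes, and the arrays did not overlap for 5 of the 8 beside 33%. TET2WT minus TET2M had a median of -0.063, 0 passed beside 3.3% of all genes, and the arrays did not overlap for 2 of the 8 beside 41%. These comparisons share arrays, and their values are not independent of each other.

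At an unadjusted p under 0.05 stood PRKAA2 in TET2WT minus Mock, PRKAA2 and STK11 in TET2M minus Mock, and PRKAB1 in TET2WT minus TET2M. That is 1, 2 and 1 of the 8, beside 20.2%, 9.51% and 17.6% of all genes. Among the 22 probe sets above the low-value level 0 passed as well, beside 0.0037% of all probe sets for glucose, 2.63% for TET2WT minus Mock, 0.0555% for TET2M minus Mock and 1.84% for TET2WT minus TET2M. On each gene's highest-mean probe set, all glucose and line intervals lay inside a 1.5-fold difference except those of PRKAA2 against Mock. Those reached 0.96 in TET2WT and 0.82 in TET2M. Each interval is a 95% interval for 1 comparison, not adjusted for the number of genes. It describes a mean over the lines or over the concentrations, so a larger difference within 1 line is not excluded. Some intervals of other probe sets went further. For glucose the upper ends were 0.79 on PRKAA1 214917_at, 0.75 on PRKAB2 1558027_s_at and 0.62 on PRKAG2 218292_s_at. For TET2WT minus Mock the lower ends were -1.09 on PRKAB2 1558027_s_at, -0.90 on PRKAA1 214917_at and -0.83 on PRKAB1 201835_s_at. For the glucose response of TET2WT against that of Mock and TET2M, 0 of the 8 passed beside 0% of all genes, and 0 had an unadjusted p under 0.05 beside 9.18%. The values ran from -0.47 (PRKAA2) to 0.18 (STK11), and with 1 residual degree of freedom the intervals of 4 of the 8 genes reached past 1.5-fold.

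**Figure D4:**
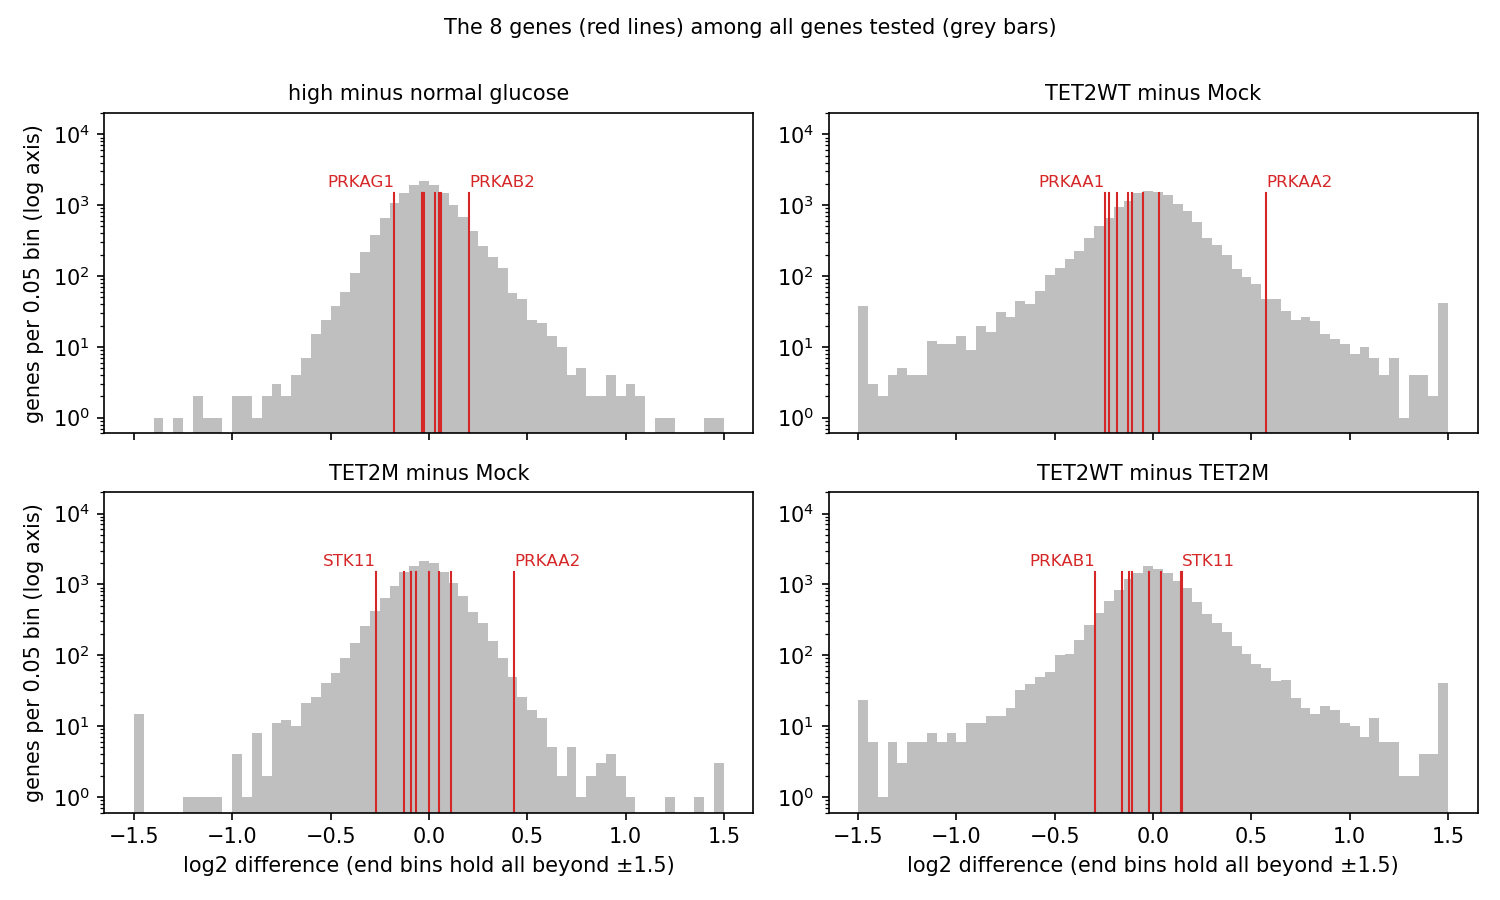
Distribution of log2 differences over all 14428 genes tested (grey bars, genes per bin on a log axis, end bins holding all values beyond the axis) with the 8 genes as red lines, in 4 comparisons. The genes at each end are named; PRKAA2, at 0.58 and 0.44, lies farthest out in both comparisons with Mock.

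Other genes around AMPK were described by lists of regulators, relatives and targets. Of 23 measured regulators other than the 8 (STK11 partners, phosphatases, sestrins, folliculin and its partners, adiponectin receptors) 0 passed in any comparison. SESN2, a sestrin gene, had the largest glucose difference of that list, 0.59 ± 0.078 (adjusted p = 0.0858, limma). The muscle gamma subunit gene PRKAG3 read between 2.91 and 3.05 on all 6 arrays. Of 11 measured AMPK-related kinases, most of which STK11 also activates, NUAK1 passed as lower in TET2WT, where its difference from Mock came to -0.56 ± 0.096 (adjusted p = 0.0369, limma; lower at 2 of 2 concentrations), and 10 did not pass. NUAK1 read 4.35 and 4.71 in Mock, 3.99 and 4.28 in TET2M, and 3.90 and 4.05 in TET2WT. Without the glucose term its adjusted p was 0.158.

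Among 15 measured genes that convert adenine nucleotides or creatine phosphate, 2 passed. AK5, an adenylate kinase that interconverts ATP, ADP and AMP, read 3.12 and 3.10 in Mock, 3.19 and 3.13 in TET2M, and 4.78 and 5.11 in TET2WT. It was higher in TET2WT than in Mock by 1.84 ± 0.12 (adjusted p = 0.00181, limma) and than in TET2M by 1.79 ± 0.12 (adjusted p = 0.00217, limma). CKB, the brain-type creatine kinase gene, read 6.75 and 6.74 in Mock, 6.25 and 6.06 in TET2M, and 5.99 and 5.68 in TET2WT. TET2WT minus Mock was -0.91 ± 0.11 (adjusted p = 0.0116, limma), whereas TET2M minus Mock, at -0.59, did not pass.

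Of 14 measured metabolic genes listed as AMPK targets, PFKFB3, a kinase that raises fructose 2,6-bisphosphate and so drives glycolysis, was the 1 gene that passed. It was higher in TET2WT (8.44 and 8.12 at normal and high glucose) than in TET2M (7.95 and 7.50), by 0.56 ± 0.096 (adjusted p = 0.0414, limma; 0.253 without the glucose term). The list's median glucose difference was -0.18, with SREBF1 at -0.66 and SREBF2 at -0.54, neither past the test. Of 15 measured genes listed as targets in growth, autophagy and mitochondria 0 passed, and 13 had negative glucose differences, beside 55.7% of all genes tested. The list's median was -0.057 against -0.020 over all genes, with DEPTOR, an inhibitor of mTOR, at -0.53 ± 0.093. Of 19 measured genes listed as targets in transcription and chromatin, TET2 alone passed, as the overexpressed gene.

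The 15 measured genes of mitochondrial biogenesis had no pass. NRF1, a regulator of nuclear genes for mitochondria, had a glucose difference of 0.64 ± 0.078 (adjusted p = 0.0783, limma). Of 26 measured lysosome and autophagy genes, WIPI1, which acts in the formation of autophagosomes, read 5.92 and 5.88 in Mock, 5.89 and 5.80 in TET2M, and 7.44 and 7.26 in TET2WT. It was higher in TET2WT than in Mock by 1.45 ± 0.090 (adjusted p = 0.00137, limma) and than in TET2M by 1.51 ± 0.090 (adjusted p = 0.00152, limma). MITF, the melanocyte transcription factor of the same family as TFEB, passed as lower in TET2WT, its difference from Mock being -0.60 ± 0.11 (adjusted p = 0.0433, limma; 0.0506 without the glucose term). Markers of other cell types were set beside these line differences. In TET2WT minus Mock 1 of 5 measured keratinocyte markers passed (KRT14, at -2.40), as did 1 of 6 fibroblast markers (LUM, at -1.06), 1 of 6 endothelial markers (ROBO4, at -0.995) and 1 of 3 blood markers (LYZ, at -0.77), all lower in TET2WT. The medians of these lists were 0.010, 0.045, 0.025 and 0.11. The summed log2 value of the 5 keratinocyte markers was 25.15 and 24.70 in Mock, 23.53 and 24.84 in TET2M, and 21.73 and 23.26 in TET2WT. KRT14 alone read 6.38 and 6.86 in Mock, 5.91 and 6.22 in TET2M, and 3.89 and 4.55 in TET2WT. KRT10 read between 9.23 and 9.39 on all 6 arrays, and CDH1 and TP63 were not among the genes above the low-value level. None of the muscle and hepatocyte markers passed. The part of these genes in the results was not tested. With any 1 array left out, which leaves 1 residual degree of freedom, none of AK5, CKB, NUAK1, PFKFB3, WIPI1 and MITF passed, and all kept their direction.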

How the data were processed

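The deposited log2 values, 1 per probe set and array, are the authors' own; per the submitters' processing notes the software was Affymetrix Expression Console. How it summarised the probes and corrected background is not stated in the labels. The log2 scale was read from the values. No further normalization was applied. Probe sets were named by the platform's annotation, and 41037 of 41091 single-gene probe sets were matched by gene ID to a RefSeq gene table (GRCh38.p14). Probe sets with a mean below the 40th percentile (2.64) were left out of tests, which kept 22 of the 28 probe sets and all 8 genes. Tests used limma 3.58.1 in R 4.3.3 (lmFit, eBayes; two-sided; Benjamini-Hochberg over all 14428 genes or 27035 probe sets, threshold 0.05). The additive model had line and glucose terms (2 residual degrees of freedom, prior 3.97), and the TET2WT-specific glucose response came from a model with 1 more term (1 residual, prior 1.72). The code was tested on simulated data with 200 changed genes. Of 1.5-fold changes 0% passed in each of the 5 comparisons. More genes than the 200 simulated passed in the data for TET2WT minus Mock (608) and TET2WT minus TET2M (476). The simulated shares need not hold for those. Of 2-fold changes 88% to 96% passed in the glucose and line comparisons and 0% in the TET2WT-specific glucose response. Alternatives were another way to represent a gene, other filters, normalizations, variance models and terms, and leaving out arrays or lines. Besides the 8 genes, the text names up to 4 passing genes of each list or, failing these, genes among the 2 with the largest difference. Figures used matplotlib 3.10.9. The genes and lists were chosen with earlier results of these data known.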

Additional observations from a re-analysis of the deposited data

How the results depend on the processing

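Over all alternatives 552 differences of the 8 genes were recomputed, 515 kept their sign and their side of the threshold, 36 turned sign and 1 passed. The pass was PRKAA2 in TET2WT minus Mock with an intensity trend in the variance. That made 1 of the 8 genes called in place of 0, beside 1528 of all 14428 genes tested in that setting. None of the differences that turned sign had passed. With the mean of a gene's probe sets the glucose difference was 0.16 for PRKAA1, 0.14 for PRKAG2, -0.054 for STK11 and 0.053 for CAMKK2, PRKAB1 was at -0.030 in TET2M minus Mock, and CAMKK2 at -0.15 in TET2WT minus TET2M; the probe sets of these genes differ in direction. Quantile normalization put the TET2WT-specific value of PRKAB1 at 0.028. The glucose difference was -0.14 for PRKAA2 without Mock, 0.045 for PRKAG2 without TET2M, and 0.095 for PRKAA1, 0.060 for PRKAG2 and -0.010 for STK11 without TET2WT.

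With 1 array left out at a time, the glucose difference ran from -0.11 to 0.095 for PRKAA1, -0.14 to 0.19 for PRKAA2, -0.22 to 0.060 for PRKAG2 and -0.010 to 0.11 for STK11. TET2WT minus Mock ran from -0.050 to 0.11 for PRKAG1 and -0.37 to 0.16 for PRKAG2. TET2M minus Mock ran from -0.26 to 0.0050 for PRKAA1, -0.21 to 0.083 for PRKAB2 and -0.030 to 0.13 for PRKAG1. TET2WT minus TET2M ran from -0.30 to 0.058 for PRKAA1, -0.093 to 0.37 for PRKAA2, -0.060 to 0.020 for PRKAG1 and -0.25 to 0.040 for PRKAG2. A line left with 1 array is assumed to vary like the others.

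Counts over all genes moved more: the 1 gene for glucose became 573 with the intensity trend, 608 for TET2WT minus Mock became 1528, 14 for TET2M minus Mock became 149 and 476 for TET2WT minus TET2M became 1249. Without the glucose term the last 3 were 318, 7 and 267. With the 4 arrays compared they were 16, 0 and 0, and with an array left out between 0 and 16. With the mean of probe sets glucose gave 5 and TET2M minus Mock 25, and glucose gave 2 without the filter, 5 with quantile normalization, 3 with cyclic loess and 0 without the line term. The cause of these shifts was not tested. Signal near the low-value level limits PRKAA2 most. The line and glucose terms already compare arrays within a line or within a concentration. No further block by replicate could be fitted because there was 1 array per combination.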
